A study of Mus musculus with 16 samples.

Results

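A set of 10 transcripts that mark blood and fast skeletal muscle was followed in the lumbar spinal cord of young mice. The blood members are *Hba-a1* and *Hbb-b1*, which encode the adult globin chains of hemoglobin, and *Alas2*, the erythroid enzyme that starts heme synthesis. The skeletal muscle members are *Acta1* (skeletal muscle actin), *Myh1* (a fast myosin heavy chain), *Mylpf* (the fast regulatory myosin light chain), *Tnnc2* and *Tnnt3* (the calcium-binding and tropomyosin-binding subunits of fast troponin), *Ckm* (muscle creatine kinase) and *Atp2a1* (the calcium pump of the fast-fiber sarcoplasmic reticulum). Every probe that the array files name after 1 of these genes was taken, which gave 18 probes of 10 genes (3 of blood and 7 of muscle) among 41174 probes that carry 27962 gene or transcript names. Probes were taken by gene name, whatever their signal.

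Tissue came from SOD1G93A mice, which carry copies of a human SOD1 gene with a mutation of familial amyotrophic lateral sclerosis and were bred from a Jackson Laboratories colony, and from wild-type (NonTg) mice of the same B6SJL background. Animals were males of 40 or 80 days, both before the onset of motor signs in this model, and were killed by decapitation. There were 4 arrays for each genotype at each age, 16 in all, described as biological replicates. Each array carried Cy3-labeled cord RNA and a Cy5-labeled reference made from neonatal heart, liver and kidney of pooled NonTg and SOD1G93A mice, with no exchange of the dyes. Replicate 1 of every group lay on the same slide, as did replicates 2, 3 and 4, and each group had its own position on the slide, so that position and group cannot be told apart. The Cy3 signal was well above background on 46.1 to 55.3% of the probes. The neuronal marker *Snap25*, a synaptic protein, was bright on every array, between 6489 and 8735 units. The motor neuron marker *Chat* was well above background on 1 array. The other 7 of 8 genes in a list of neuronal markers were so on all 16 arrays, other cholinergic and motor neuron genes included.

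Globin messengers in adult tissue come mostly from reticulocytes in circulating blood, while *Alas2* is made in red cell precursors. The muscle members build the contractile and calcium-handling machinery of fast-twitch fibers, which are cells of the limb and trunk and no part of the cord parenchyma. Fast fibers keep their own isoforms of myosin, troponin and the calcium pump, so that their transcripts can be told from those of slow and cardiac muscle. In a bulk sample, fewer cells of a type and less RNA per cell cannot be told apart.

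The globin probes are shown first because 2 probes of 1 gene can read nearly the same stretch of transcript. All probe positions are those in the array files, on the mm7 (NCBI35) mouse build. Capitals mark the bases where both probes of a gene overlap. The pair for *Hba-a1* lies on the plus strand at chr11:32235937-32235996 and chr11:32235785-32235966, and the pair for *Hbb-b1* on the minus strand at chr7:99864335-99864394 and chr7:99864305-99864363.

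Hba-a1, brightest probe: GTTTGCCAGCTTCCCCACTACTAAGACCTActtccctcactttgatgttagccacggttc

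Hba-a1, second probe: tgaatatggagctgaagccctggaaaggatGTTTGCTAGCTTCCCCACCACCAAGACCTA

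Hbb-b1, second probe: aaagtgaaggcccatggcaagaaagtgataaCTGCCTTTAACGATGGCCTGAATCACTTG

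Hbb-b1, dimmest probe: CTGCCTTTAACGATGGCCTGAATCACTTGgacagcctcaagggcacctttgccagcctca

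The *Hba-a1* probes share 30 positions, of which 27 are identical. Counted from 1 at the 5′ end of the brightest probe, the differences are C7T, T19C and T22C, with the base of the brightest probe first. The *Hbb-b1* probes share 29 positions, all of them identical. Mouse globin genes come as near-identical copies, and the accession that the files give for *Hbb-b1* belongs to *Hbb-bt* in the RefSeq table, so the globin values cannot be assigned to 1 copy.

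The muscle probes of *Acta1* and *Ckm* are shown as examples of a sarcomere and a metabolic transcript, the first reading 1 stretch of genome and the second a splice junction. That of *Acta1* lies on the minus strand at chr8:122479438-122479497. That of *Ckm* lies on the plus strand, and its 60 bases are spread over 2608 bases of genome (chr7:17099247-17101854), so that it spans an intron and reads spliced transcript.

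Acta1: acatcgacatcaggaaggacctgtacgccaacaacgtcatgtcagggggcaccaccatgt

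Ckm: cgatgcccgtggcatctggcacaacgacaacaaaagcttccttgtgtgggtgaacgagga

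The blood transcripts were measured on every array and had narrower ranges than most muscle transcripts. All 7 blood probes were well above background on 16 of 16 arrays, and the brightest probe of *Hba-a1* varied by 1.73-fold and that of *Hbb-b1* by 1.99-fold between the highest and the lowest array, while *Alas2* varied by 3.62-fold. Levels are given here as Cy3 units, the median spot signal less the local background, for the brightest probe of each gene. Levels of different probes are not compared, since probes differ in how well they bind.

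*Hba-a1* (alpha globin) gave 1073, 917, 1112 and 1020.5 units in wild-type mice of 40 days and 1162, 1079, 841 and 835 units in SOD1G93A mice of that age. At 80 days its values were 1443, 1091, 991 and 896.5 units in wild-type and 1065.5, 1017.5, 1126.5 and 1109 units in SOD1G93A mice. The 4 groups overlapped, and the highest value was that of the first wild-type array of 80 days.

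*Hbb-b1* (beta globin) gave 1391, 1294.5, 1435 and 1281 units in wild-type and 984, 1293.5, 1038.5 and 1546 units in SOD1G93A mice at 40 days. At 80 days it gave 1741, 1318, 1393.5 and 1226 units in wild-type and 1459, 1369, 875 and 1513 units in SOD1G93A mice. The genotypes overlapped at both ages. The lowest of the 16 values was that of the third SOD1G93A array of 80 days, and the highest that of the first wild-type array of 80 days. The other *Hbb-b1* probes were not lowest on that SOD1G93A array. They gave 586, 421 and 306 units there, against 406, 215 and 171 units on their lowest arrays. Of the 4 *Hbb-b1* probes, the third varied most, by 3.70-fold.

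*Alas2* gave 178, 173, 110.5 and 198 units in wild-type and 192, 172, 120 and 186 units in SOD1G93A mice at 40 days. At 80 days the values were 400, 159, 192 and 165 units in wild-type and 209.5, 169.5, 199 and 187 units in SOD1G93A mice. A single array, the first wild-type array of 80 days, stood well above the other 15. That array was the highest of the 16 for all 7 blood probes. It was also the highest for *Pf4* (74 units, with a median of 39 over the arrays) and *Ppbp* (27 units, median 9.5), which encode platelet chemokines. *Ppbp* was well above background on 4 arrays. The platelet genes *Itga2b*, *Gp1ba* and *Gp9* were highest on other arrays, and were well above background on 1, 0 and 4 arrays. The first wild-type array of 80 days was also the highest for a list of 6 meningeal genes. Their summed level reached 6839 units in that group and at most 4412 units in any other. The part of the meninges in the blood values was not tested.

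**Figure D1:**
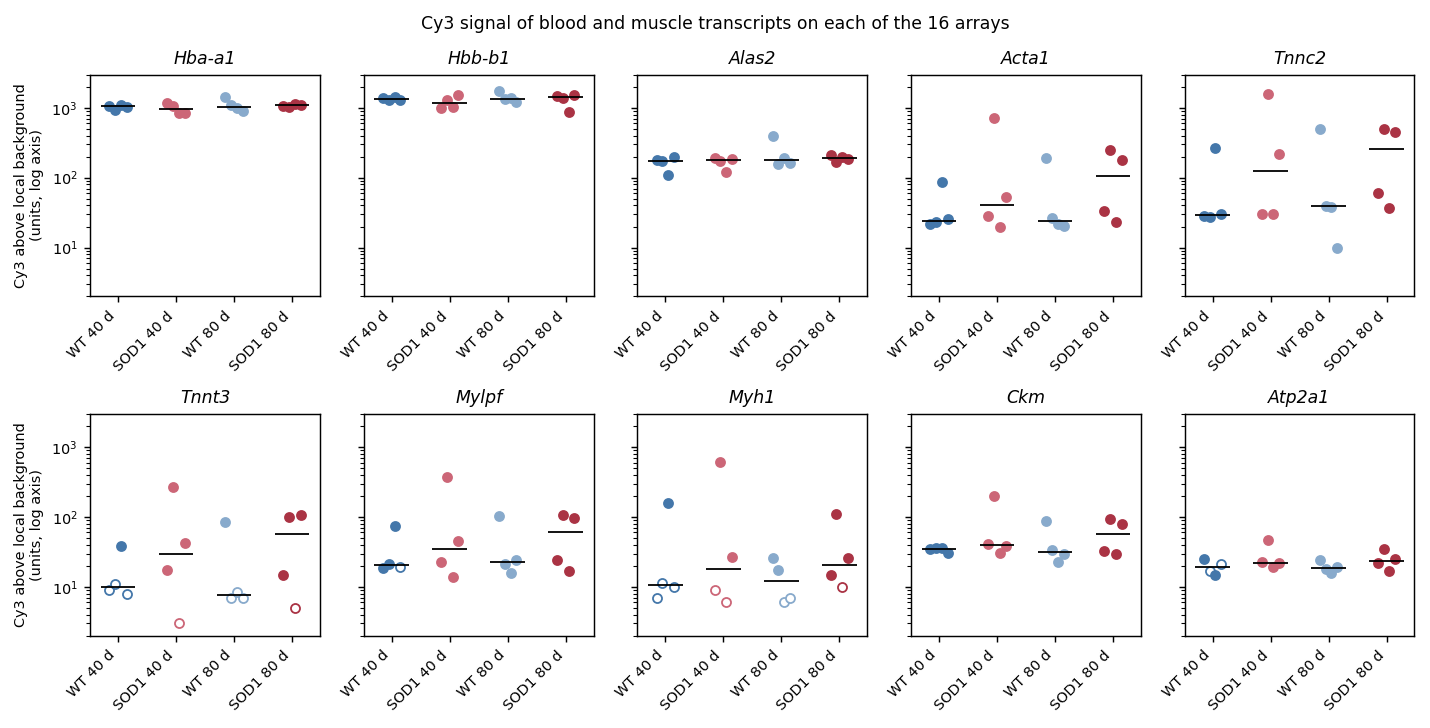
Cy3 signal above local background (units, log axis) of the brightest probe of the 10 genes on 16 arrays. Each point is 1 array, the bar is the group median of 4 arrays, and open points are not well above background. The blood genes in the first 3 panels lie in narrower bands, while most muscle genes are low on most arrays and high on a few in every group.

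Most muscle transcripts behaved otherwise. They were near the lower end of the scale on most arrays and many times higher on single arrays of every group. In wild-type mice of 40 days, though, *Ckm* stayed between 31 and 36 units and *Atp2a1* between 15 and 25 units. The highest array exceeded the median array by 41.3-fold for *Tnnc2*, 26.6-fold for *Acta1*, 5.73-fold for *Ckm* and 2.16-fold for *Atp2a1*. No fold is given for *Myh1* and *Tnnt3*, which were well above background on 8 of 16 arrays each. For all 7 muscle genes the highest array was the second SOD1G93A array of 40 days.

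*Tnnc2*, the calcium sensor of fast muscle, gave 28, 27, 266 and 30 units in wild-type mice of 40 days and 30.5, 1600.5, 30 and 222 units in SOD1G93A mice of that age. At 80 days the values were 494, 39.5, 38 and 10 units in wild-type and 60, 496.5, 37 and 451 units in SOD1G93A mice. At 40 days 1 wild-type and 2 SOD1G93A arrays were high, and the same numbers held at 80 days. The spot with 10 units also had the lowest Cy5 signal of that probe (1163 units, against 2136 to 3413 units on the other arrays).

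*Acta1* gave 22, 23, 86 and 25.5 units in wild-type and 28, 726, 20 and 53 units in SOD1G93A mice at 40 days. At 80 days it gave 189.5, 26.5, 21.5 and 20.5 units in wild-type and 33, 248, 23 and 181 units in SOD1G93A mice. Its high arrays were those of *Tnnc2*.

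*Myh1* gave 7, 11.5, 158 and 10 units in wild-type and 9, 607, 6 and 27 units in SOD1G93A mice at 40 days. At 80 days it gave 25.5, 17.5, 6 and 7 units in wild-type and 15, 111, 10 and 26 units in SOD1G93A mice. The third wild-type array of 40 days was the second highest for *Myh1* but the fifth highest for *Tnnc2*, so the high arrays did not keep 1 order. The other *Myh1* probes were well above background on 2 arrays and on 0 arrays.

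Of the other muscle members, *Tnnt3* and *Mylpf* were high on the same 6 arrays as *Tnnc2*, and *Ckm* and *Atp2a1* on some of them. *Tnnt3* ranged from 3 to 270.5 units, *Mylpf* from 14 to 377 units and *Ckm* from 22.5 to 202 units. The brightest *Atp2a1* probe ranged from 15 to 47 units, so it moved little. A second *Atp2a1* probe gave 93.5 units on the second SOD1G93A array of 40 days, 33 and 24.5 units on replicates 2 and 4 of SOD1G93A at 80 days, 23 units on the first wild-type array of 80 days, and 5 to 10.5 units on the other 12 arrays.

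The 6 highest *Tnnc2* values came from these arrays: replicate 3 of wild-type and replicates 2 and 4 of SOD1G93A at 40 days, and replicate 1 of wild-type and replicates 2 and 4 of SOD1G93A at 80 days. These were 2 of 8 wild-type and 4 of 8 SOD1G93A arrays. The same 6 arrays were the highest for *Acta1*, *Mylpf*, *Tnnt3* and *Myh1*, while *Ckm* shared 5 and *Atp2a1* shared 4 of them. On them *Tnnc2* lay between 222 and 1600.5 units, and on the other 10 arrays between 10 and 60 units. *Acta1* lay between 53 and 726 units on the 6 and between 20 and 33 units on the 10. *Myh1* and *Tnnt3* were well above background on 6 of the 6 and on 2 of the 10. Since the arrays were picked by these values, no test was run between them.

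**Figure D2:**
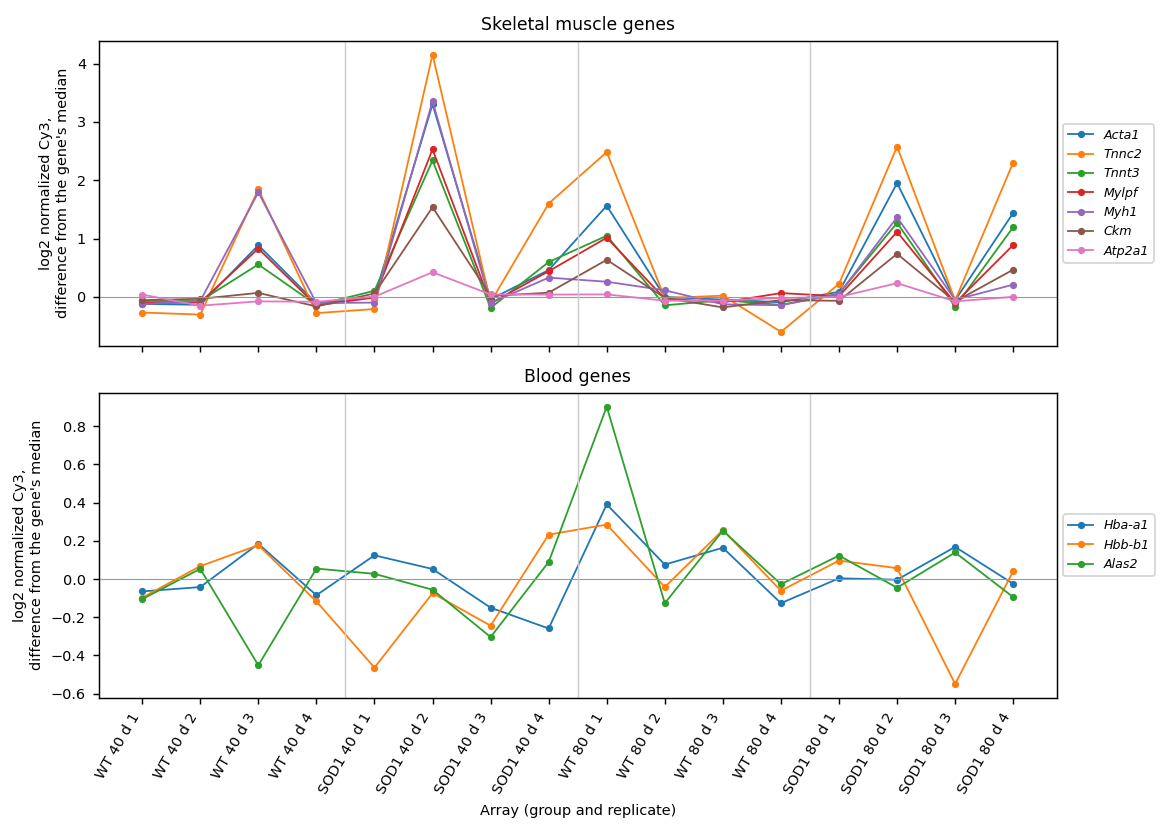
Log2 normalized Cy3 of the 7 muscle genes (top) and the 3 blood genes (bottom) on each of the 16 arrays, as the difference from the gene's median over the arrays. The vertical scales differ. Most of the muscle genes peak together on single arrays of all 4 groups, and the blood genes do not peak on most of those arrays.

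By the brightest probes, the spread between replicates was wider for 6 of the 7 muscle genes than for blood. Within groups, the SD of log2 normalized Cy3 was 1.50 for *Tnnc2*, 1.05 for *Acta1*, 1.02 for *Myh1*, 0.774 for *Mylpf*, 0.757 for *Tnnt3* and 0.464 for *Ckm*. It was 0.129 for *Atp2a1*, 0.159 for *Hba-a1*, 0.243 for *Hbb-b1* and 0.281 for *Alas2*. Other probes spread more: the SD was 0.363 for the second *Atp2a1* probe, well above background on 5 arrays, and 0.330 for the third *Hbb-b1* probe. Over 21951 probes tested in at least 1 comparison the median SD was 0.113 and the 99th percentile 0.411, so 6 of the 7 muscle genes lay beyond that percentile and the blood genes below it. Among the blood genes, *Alas2* still varied more than 96.7% of those probes, *Hbb-b1* more than 94.8% and *Hba-a1* more than 78.1%. In the reference channel the SD was 0.133 for *Acta1*, 0.32 for *Tnnc2* and 0.519 for *Myh1*, whose Cy5 signal was also highest on the second SOD1G93A array of 40 days (470 units, with 98 units on the lowest array).

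Correlations between members are given within the 6 high and within the other 10 arrays, since the arrays fall into separate clusters. They are a description without p-values, as the arrays were picked by the levels of these genes and the 6 include the extreme second SOD1G93A array of 40 days. Among the 21 pairs of muscle genes, Pearson's r within the 6 had a median of 0.917 (0.681 to 0.989), with a median Spearman's rho of 0.886. Within the 10 the median r was 0.256 (-0.17 to 0.748). For the 21 pairs of a blood and a muscle gene the median r was 0.010 (-0.81 to 0.22) within the 6 and 0.089 (-0.62 to 0.50) within the 10. That median joins unlike genes: within the 6 arrays the brightest *Hbb-b1* probe had r from -0.81 to -0.68 with the 7 muscle genes, and that of *Hba-a1* from -0.12 to 0.22. The other globin probes were not used, so these values hold only for the brightest probes.

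The brightest probes of the blood genes did not follow each other closely. The other probes of *Hba-a1* and *Hbb-b1* were not used here, and those of *Hbb-b1* did not share the low value of the brightest on the third SOD1G93A array of 80 days. Over 16 arrays r was 0.50 for *Alas2* and *Hba-a1* (rho 0.23, permutation p = 0.053, adjusted p = 0.108 over 45 pairs), 0.27 for *Alas2* and *Hbb-b1* and 0.066 for *Hba-a1* and *Hbb-b1*. Without the 2 arrays farthest from the median of *Alas2*, the first r was 0.38.

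Differences are given below in log2 normalized Cy3, in which an offset of 50 units makes the differences of dim genes smaller than those of the raw units. The genotype comparison at 40 days asked whether these transcripts differed before motor signs. At an unadjusted p under 0.05 in limma, 0 of the 9 members tested were called, where 2.51% of all 21336 probes tested were. After Benjamini-Hochberg adjustment 0 members were called, and 0% of all probes. For 0 members did the genotypes fail to overlap, against 2.16% of all probes. The muscle genes had higher means in SOD1G93A mice, 7 of 7 with the second SOD1G93A array and 5 of 7 without it, with a median difference of 0.59 on the log2 scale (0.095 without it), where all probes had a median of 0.01 and 56.9% were higher. These 7 genes are high on the same arrays and do not count as 7 separate observations.

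At 40 days *Tnnc2* was 1.11 higher on the log2 scale in SOD1G93A mice (SE 0.90, 95% confidence interval -0.89 to 3.12, limma p = 0.244, exact permutation p = 0.371). *Acta1* was 0.80 higher (SE 0.66, interval -0.67 to 2.27, exact permutation p = 0.457) and *Ckm* 0.47 higher (interval -0.20 to 1.13, exact permutation p = 0.0857). Without the second SOD1G93A array the difference was 0.18 for *Tnnc2*, 0.01 for *Acta1* and 0.09 for *Ckm*, and that of *Mylpf* turned from 0.59 to -0.01. *Atp2a1* had the lowest p in limma, at a difference of 0.19 (interval -0.02 to 0.41, limma p = 0.068, exact permutation p = 0.0857), which was 0.10 without that array. *Myh1*, which was dim on most arrays, was not tested with limma and differed by 0.50 (exact permutation p = 0.571), or by -0.33 without that array. Every one of these differences was within what the spread between replicates allows. With 4 arrays against 4 the exact test cannot go below 0.0286.

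For the brightest blood probes at 40 days the intervals were narrower than for most muscle genes. The differences were -0.06 for *Hba-a1* (interval -0.27 to 0.16), -0.14 for *Hbb-b1* (-0.45 to 0.16) and 0.05 for *Alas2* (-0.23 to 0.33). The second *Hba-a1* probe differed more, by -0.30 at 40 days (interval -0.65 to 0.05, limma p = 0.088, exact permutation p = 0.20). All 7 blood probes had a p above 0.05 in limma.

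The same comparison was made at 80 days. In limma 0 of 10 members were called at an unadjusted p under 0.05, where 5.18% of all probes were, and 0 after adjustment, where 0.00463% (1 probe) were. For 0 members did the genotypes fail to overlap, against 3.08% of all probes. The 7 muscle genes again had higher means in SOD1G93A mice, with a median of 0.37, where all probes had a median of -0.01 and 47.0% were higher. *Tnnc2* was 0.79 higher (SE 0.77, interval -0.94 to 2.52, exact permutation p = 0.343), *Acta1* 0.50 higher (interval -0.64 to 1.64, exact permutation p = 0.429) and *Myh1* 0.37 higher (exact permutation p = 0.371), which had the lowest p of the brightest probes in limma, 0.212. *Myh1* entered this test through the SOD1G93A group, where 3 of 4 arrays were well above background. Without the second SOD1G93A array of 80 days the muscle median was 0.04. Without the first wild-type array, *Tnnc2* was 1.46 higher and was called in limma at an unadjusted p under 0.05. Leaving out each array in turn, its difference ran from 0.35 to 1.46 at 80 days and from 0.18 to 1.65 at 40 days. Differences of the blood genes were -0.09 for *Hba-a1* (-0.24 for its second probe), -0.20 for *Hbb-b1* and -0.22 for *Alas2*. For the brightest probes these had exact permutation p-values of 0.543, 0.343 and 0.486. Without the first wild-type array the blood median moved from -0.20 to 0.00.

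**Figure D3:**
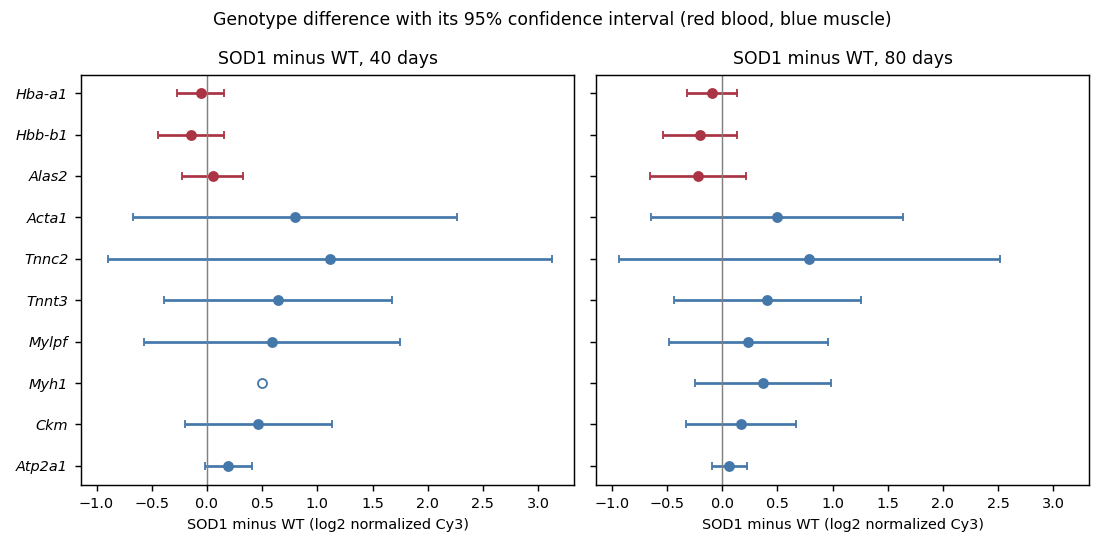
Difference in log2 normalized Cy3 between SOD1G93A and wild-type mice at 40 and 80 days, with 95% confidence intervals from limma (4 arrays against 4). The open point, *Myh1* at 40 days, was not tested. All intervals drawn include 0, and those of the muscle genes other than *Atp2a1* are wide.

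Within slides the genotypes had no steady order. At 40 days all 7 muscle genes were higher in SOD1G93A on 3 of 4 slides, and the difference of *Tnnc2* within a slide ran from -1.94 to 4.46 on the log2 scale. At 80 days *Ckm* and *Myh1* were higher in SOD1G93A on 3 of 4 slides, and *Tnnc2*, *Acta1*, *Mylpf*, *Tnnt3* and *Atp2a1* on 2 of 4. The difference of *Tnnc2* ran from -2.26 to 2.90. With slide as a block, 0 members were called in limma at an unadjusted p under 0.05 at either age, where 3.80% of all probes were at 40 days and 7.95% at 80 days.

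Age was compared within each genotype. From 40 to 80 days in wild-type mice, 0 of 8 members tested were called at an unadjusted p under 0.05 in limma, where 11.6% of all probes were, and 0 after adjustment (0.697% of all probes). For 0 members did the ages fail to overlap, against 5.67% of all probes. *Alas2* came nearest, with 0.36 more at 80 days (SE 0.18, interval -0.01 to 0.74, limma p = 0.0565, exact permutation p = 0.257). Without the array of 400 units the difference of *Alas2* was 0.15. In SOD1G93A mice 0 of 10 members were called, where 12.2% of all probes were, and 0 after adjustment (0.693%), and for 0 members did the ages fail to overlap, against 8.47%. The lowest limma p was 0.332, for *Atp2a1*. The muscle median was 0.12 in wild-type mice (-0.18 without the first array of 80 days) and -0.13 in SOD1G93A mice (0.37 without the second array of 40 days), where the medians of all probes were 0.02 and -0.01. These age comparisons use the same arrays as the genotype comparisons.

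The genotype difference was also compared between the ages. In limma 0 of 10 members were called at an unadjusted p under 0.05, against 4.43% of all probes, and 0 after adjustment, against 0%. The lowest p was 0.293, for *Alas2*, whose difference between the ages was -0.27 (interval -0.80 to 0.26). For *Tnnc2* it was -0.32 (interval -3.11 to 2.46, exact permutation p = 0.896), an interval that includes changes of several fold in either direction.

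Genes whose pattern over the 16 arrays was most like that of *Acta1* were ranked by Pearson's r on log2 Cy3, pooled over both clusters of arrays and used only to order genes, without p-values. Of 21862 probes, 17 exceeded 0.9. The first were *Actn3* (0.990), a fast-fiber actin cross-linker, *Tnnt3* (0.987), *Mylpf* (0.986), *Eno3* (0.978), the muscle enolase, *Tnni2* (0.975), the fast inhibitory troponin subunit, *Ckm* (0.974), *Myl1* (0.970), *Tnnc2* (0.967), *Mybpc2* (0.957) and *Myh4* (0.957). These values rest on the few high arrays. For the brightest *Hbb-b1* probe, 0 of 21859 probes of other gene names exceeded 0.9. The other *Hbb-b1* probes were left out of this ranking. Its first genes were *Rpl36* (0.818), a ribosomal protein, *Ldha* (0.788), *2310010J17Rik* (0.778) and *Pecam1* (0.769), an endothelial adhesion protein, and neither *Alas2* nor *Hba-a1* was among the first 10.

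**Figure D4:**
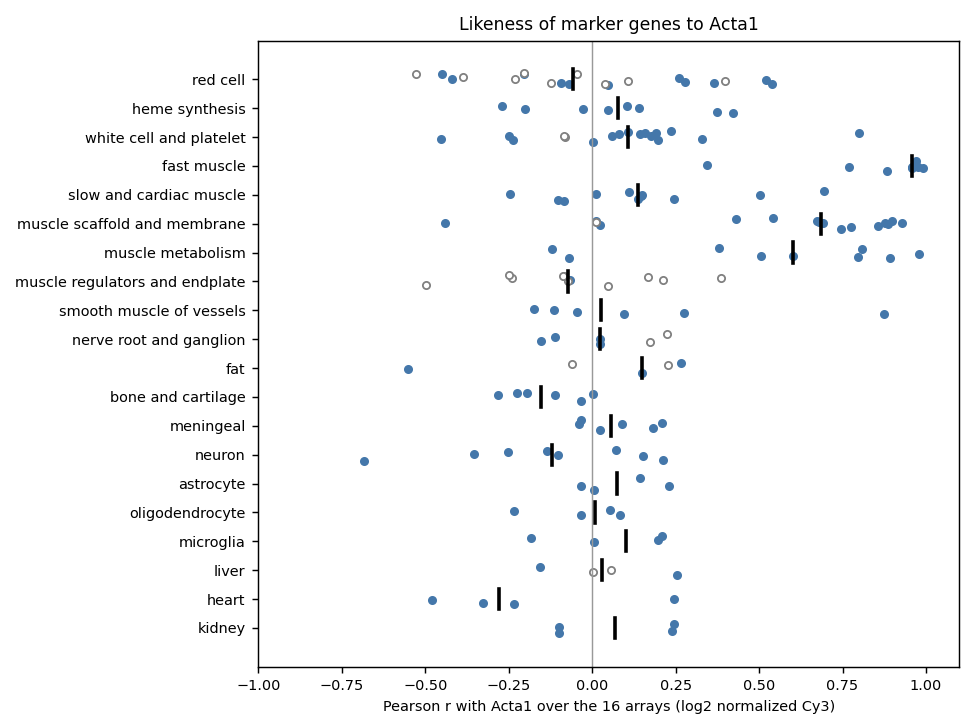
Pearson's r of each gene of 20 marker lists with *Acta1* over the 16 arrays. Points are genes, open where the probe was well above background on no array, and vertical bars are list medians. The fast muscle list has a median of 0.957, the scaffold list 0.685 and the slow and cardiac list 0.137.

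Other genes of the fast fiber moved with the members. In a list of 9 further fast-fiber genes, 6 had r over 0.9 with *Acta1* and the median was 0.957. *Tnni2* ranged from 28 to 1776.5 units, *Myl1* from 13 to 821 units and *Myh2*, a fast myosin, from 4.5 to 553 units, each highest on the second SOD1G93A array of 40 days. *Pvalb*, a calcium buffer that neurons also make, had r of 0.35. The summed level of the list ran from 568 to 1233.5 units in wild-type and from 615.5 to 5017 units in SOD1G93A mice at 40 days, and from 516 to 1786.5 and from 644.5 to 1884.5 units at 80 days. In limma 0 of 7 genes tested were called at an unadjusted p under 0.05 at either age. Of all probes, 2.51% were called at 40 days and 5.18% at 80 days, so 0 calls in so short a list says little about it. The list medians were 0.50 and 0.39 on the log2 scale, where those of all probes were 0.01 and -0.01.

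Genes that slow or cardiac muscle uses did not move in the same way. All 11 genes of this list were well above background on all 16 arrays, their median r with *Acta1* was 0.137, and their sums lay between 2396 and 3178 units in all groups. *Tnnt1*, the slow troponin T, was nearest to *Acta1* (r 0.70, from 20 to 65 units). Several of the list had a large reference signal. Median Cy5 was 338903 units for *Myh7*, 193430 for *Myl3* and 168035 for *Myl2*, where the median Cy3 was 0.180%, 0.146% and 0.105% of Cy5. In the fast list median Cy5 ran from 61.75 units (*Myh2*) to 59628 units (*Myh4*). The part of the reference dye in these Cy3 values was not tested. In limma 0 of 11 were called at either age, where 2.51% of all probes were at 40 days and 5.18% at 80 days.

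Among 16 genes of the sarcomere scaffold and muscle membranes the median r was 0.685. *Tcap*, the cap of titin, ranged from 75 to 400.5 units (r 0.93), and *Ttn* itself from 12.5 to 75 units (r 0.86). Among 9 genes of muscle metabolism the median r was 0.602, with *Eno3* from 75.5 to 330 units. In limma 8 of these 9 were tested at each age, where 2.51% of all probes were called at 40 days and 5.18% at 80 days. Of that list 1 gene was called in limma, *Cox6a2*, a muscle subunit of cytochrome oxidase, which was 0.46 higher in SOD1G93A mice at 40 days (SE 0.16, adjusted p = 1.00).

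Regulators of muscle formation and parts of the endplate were near background. Of 11 genes, 10 were well above background on 0 arrays, among them *Myod1*, *Myog* and *Myf5*, which drive myoblasts into muscle, *Pax7*, which marks satellite cells, and *Musk*, the endplate kinase. *Chrne* alone passed, at 20 to 36 units, and its r with *Acta1* was -0.07.

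Red cell genes other than the members were mostly dim. Of 20 genes, 9 were well above background on 0 arrays, among them *Gata1*, an erythroid transcription factor. *Slc4a1*, the anion exchanger of red cells, was above background on all 16 arrays at 28 to 70 units. Of *Add2* and *Ank1*, which neurons also express, *Ank1* was 0.17 higher in SOD1G93A mice at 80 days (called at an unadjusted p under 0.05 in limma, adjusted p = 0.944). *Ank1* at 80 days was the only call among the 7 red cell genes tested at 40 days and the 8 tested at 80 days. Of all probes, 2.51% were called at 40 days and 5.18% at 80 days. The summed level ran from 2517 to 3604 units in wild-type and from 2747 to 3401 units in SOD1G93A mice at 40 days, and from 2758 to 3324 and 3403 to 3636 units at 80 days. Most of that sum came from *Add2* and *Ank1*, since the medians of the other 18 genes lay between 5 and 38 units. All 8 genes of heme synthesis in all cells were well above background on 16 arrays. In limma 0 of the 8 were called at either age, beside the same shares of all probes.

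White cell and platelet genes gave 0 calls among 8 genes tested at 40 days and 9 at 80 days, of 17. Of all probes, 2.51% were called at 40 days and 5.18% at 80 days. *S100a9*, a neutrophil protein, ranged from 238.5 to 1349.5 units and was highest on the third SOD1G93A array of 80 days. *Elane*, neutrophil elastase, had 421 units on the second SOD1G93A array of 40 days, where the muscle genes also peaked, against a median of 7.5 units, and was well above background on 3 arrays.

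Lists of other cells in or around the cord did not follow *Acta1*. Their median r was 0.06 for the meninges, 0.02 for nerve roots and ganglia, 0.03 for vessel smooth muscle, 0.15 for fat and -0.15 for bone and cartilage, and for neurons, astrocytes, oligodendrocytes and microglia it ran from -0.12 to 0.10. Within the vessel list *Des*, the desmin that striated muscle also makes, had r of 0.87. The fourth SOD1G93A array of 80 days, 1 of the 6 with high muscle signal, was also the highest for *Gfap* (4259 units, median 2100), the astrocyte filament, and for *Aif1* (522 units, median 177.5), a microglial protein. The part of this in the muscle values was not tested. In these lists and in a list of heart genes limma called, at an unadjusted p under 0.05, *Aqp4* (0.38) and *Slc1a2* (0.25) as higher and *Myh11* (-0.25) as lower in SOD1G93A mice at 40 days. At 80 days it called *Mog* (0.29) as higher and *Syt1* (-0.34), *Igf2* (-0.19) and *Nppa* (-0.13) as lower, and 0 of these calls held after adjustment at either age. The calls were 2 of 4 astrocyte and 1 of 6 vessel genes tested at 40 days. At 80 days they were 1 of 4 oligodendrocyte, 1 of 7 neuron, 1 of 6 meningeal and 1 of 4 heart genes tested. The other lists of this paragraph had no calls. Of all probes, 2.51% were called at 40 days and 5.18% at 80 days.

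The reference channel, made from neonatal heart, liver and kidney, was bright for the blood transcripts and for several of the muscle transcripts. It was dimmer for the brightest probes of *Myh1* (98 to 470 units) and *Tnnt3* (270 to 418 units). Cy5 lay between 202022 and 591741 units for the globin probes, between 18016 and 37534 units for *Alas2*, between 8829 and 15018 units for *Ckm* and between 3621 and 4857 units for *Acta1*. The median Cy3 signal was 0.228% of the Cy5 signal for *Hba-a1*, 0.315% for *Hbb-b1*, 0.609% for *Alas2*, 0.274% for *Ckm*, 0.667% for *Acta1* and 1.61% for *Tnnc2*. For genes of the heart that were bright in the reference the share was 0.372% for *Nppa* (atrial natriuretic peptide), 0.296% for *Myh6* and 0.092% for *Myl7* (atrial myosin light chain). The part of the reference dye in the low Cy3 values was not tested. On the second SOD1G93A array of 40 days, Cy3 reached 15.5% of Cy5 for *Acta1*, 46.9% for *Tnnc2*, 73.5% for *Tnnt3* and 129% for *Myh1*.

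Promoter sequence of RefSeq (GRCm38.p6) was searched over 250 bases before the start of each gene, on both strands, for 5 short motifs chosen after the sequences had been seen. Windows were found for 6 of the 7 muscle genes and for 5 genes of blood, the globin copies included. The E-box CAGCTG was in 4 of the 6 muscle windows (*Acta1*, *Ckm*, *Mylpf* and *Atp2a1*) and in 13.0% of all 32851 windows. The CArG box, which serum response factor binds, was in that of *Acta1* and in 1.5% of all windows, and CACCTG in that of *Tnnc2* and in 17.2% of all. AGATAA, a sequence of the GATA kind, was in 2 of the 5 blood windows (*Alas2* and *Hbb-bs*) and in 3281 of all windows. CACCC was in 5 of the 5 blood windows, in 4 of the 6 muscle windows and in 52.0% of all. The window of *Acta1* (chr8:123894776-123895025, minus strand) is shown because it alone holds both muscle motifs, which are in capitals. CACCC is not marked.

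Acta1, before the start: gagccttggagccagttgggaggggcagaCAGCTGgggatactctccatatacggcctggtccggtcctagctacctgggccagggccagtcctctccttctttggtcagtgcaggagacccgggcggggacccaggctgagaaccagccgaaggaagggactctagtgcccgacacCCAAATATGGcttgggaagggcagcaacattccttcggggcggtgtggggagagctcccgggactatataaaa

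A match shows only that these letters are present.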

How the data were processed

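Groups came from the genotype and age in the labels. The authors scanned the arrays and deposited Agilent Feature Extraction 9.5.3.1 spot signals, which are intensity values on a linear scale, not normalized. Log2 values normalized by the authors, from the series matrix, were an alternative.

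In R 4.3.3, median Cy3 signals were corrected with normexp (limma 3.58.1, offset 50), local backgrounds over 20 units above their spot being set to the array median. Control and outlier spots were left out. Arrays were quantile normalized and spots of 1 probe averaged. Probes were tested if well above background on at least 3 of 4 arrays of 1 compared group. Genotypes were compared in limma on 8 arrays, ages and the difference between the ages on 16, at an unadjusted p under 0.05, as in the study's methods, with Benjamini-Hochberg adjustment over all probes beside it. Members also had exact two-sided permutation tests. Array number limits the precision, and p-values measure the spread between these samples, described only as biological replicates. Correlations of blood genes used 100000 permutations. Scripts were tested on simulated data.

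The brightest probe stands for a gene. Text names the 10 members, the 10 genes most like *Acta1* or *Hbb-b1*, list genes with p under 0.05, and, chosen after their values were seen, the other list genes given as examples. The members and the 20 lists were chosen with earlier results of these data known. RefSeq accessions matched 22951 of 41174 probes, 5141 under another symbol, and the files' names were kept. Results of some list genes are not reported here, while list counts include them.

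Alternatives changed the background correction, the signal used (mean, processed, the Cy3 to Cy5 ratio), the normalization, the filters, the arrays or weights behind the spread, the replicate block and the probe, and left out each array in turn.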

Additional observations from a re-analysis of the deposited data

Results flagged for a closer look

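In 15 of 40 sets of 4 arrays (10 genes in 4 groups), the highest or lowest array stood apart from the other 3 by Dixon's criterion. Chance meets it in about 1 of 20 separate sets. The 40 sets are not separate, since most muscle genes are high on the same arrays, and the share over all probes was not computed. Of the 15 flagged sets, 12 were of muscle and 3 of blood genes. Among them, 6 lay on the third wild-type array of 40 days, 4 on the second SOD1G93A array of 40 days and 3 on the first wild-type array of 80 days. Values here are log2 normalized Cy3.

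On the third wild-type array of 40 days the highest values of the group were 8.362 for *Tnnc2*, 7.762 for *Myh1*, 7.152 for *Acta1*, 7.016 for *Mylpf*, 6.52 for *Tnnt3* and, among blood genes, 10.25 for *Hba-a1*. The second SOD1G93A array of 40 days was highest at 9.569 for *Acta1*, 9.323 for *Myh1*, 7.958 for *Ckm* and 6.582 for *Atp2a1*. The first wild-type array of 80 days was highest at 7.829 for *Acta1*, 7.202 for *Mylpf* and 7.012 for *Tnnt3*. On the third SOD1G93A array of 80 days *Hba-a1* was the highest of its group at 10.23 while the brightest *Hbb-b1* probe was the lowest at 9.876. The second and the dimmest *Hbb-b1* probe were the highest of the group on that array, at 9.331 and 8.481.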

How the results depend on the processing

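As reported, 0 members passed an unadjusted p under 0.05 in limma in any comparison, and most alternatives kept it so. At 40 days 1 member passed (*Atp2a1*, higher in SOD1G93A) without background subtraction (0.25), with the spread taken from 16 arrays (0.19) and with an offset of 10 (0.42), an alternative chosen after seeing the data. From 40 to 80 days in wild-type mice 1 passed (*Alas2*, higher at 80 days) with mean signals (0.37) and with the Cy3 to Cy5 ratio (0.37). Leaving out 1 array gave 0 to 1 members in these comparisons and at 80 days: *Atp2a1* without the first and *Hbb-b1* (-0.27) without the fourth SOD1G93A array of 40 days, *Tnnc2* without the first wild-type array of 80 days, and *Alas2* without replicate 2 or 4 of wild-type mice at either age (0.15, not called, without replicate 1 of 80 days). The cause was not tested. Of 1350 other values of single members, 1338 stayed on their side of the threshold, 12 passed in the same direction and 0 reversed, counting a change of sign only where the alternative was called.

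The blood median at 80 days ran from -0.25 to -0.0030 (without the first wild-type array) when 1 array was left out, and the blood median of the difference between the ages was -0.23 with the second brightest probes. The muscle median ran from 0.09 (without the second SOD1G93A array) to 0.87 at 40 days and from 0.04 (likewise) to 0.52 at 80 days. It changed sign for age in wild-type mice (-0.18 without the first array of 80 days), for age in SOD1G93A mice (0.37 without the second array of 40 days) and for the difference between the ages (0.31 without that array).

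Over all probes, calls rose from 536 to 811 at 40 days and from 1118 to 1717 at 80 days with the replicate block (the slide), which called 0 members. Deviations of same-numbered arrays of the genotypes had r of 0.14 to 0.25 at 40 days and 0.063 to 0.304 at 80 days. Leaving out 1 array gave 410 to 1234 calls at 40 days and 759 to 1354 at 80 days. The interaction already uses 16 arrays, so other arrays for its spread were not run, and the series matrix served the genotype comparisons only.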
